A study of Mus musculus with 18 samples.

Results

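Cytosolic ribosomal proteins are the protein part of the ribosomes that translate nuclear-encoded mRNA, and their mRNAs were followed here in cultured mouse Leydig cells. The members are the rows of the deposited count table whose symbol has the form of a large-subunit (Rpl) or small-subunit (Rps) protein name, with Rplp0, Rplp1, Rplp2, Rpsa and Fau added and pseudogene symbols ending in -ps left out. This gave 90 of the 55487 genes of the table, 37 of the small and 53 of the large subunit. Of these, 86 had enough counts to be tested, and Rpl3l, Rpl10l, Rpl39l and Rps12l1 did not. The set includes paralogues (Rpl3l, Rpl10l, Rpl39l, Rpl22l1, Rps27l) beside the core proteins. GENCODE annotates Rps3a2, Rps3a3, Rps4l, Rps12l1, Rpl6l and Rpl32l as processed pseudogenes, and they stayed in because their symbols match.

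Ribosomal proteins are made in nearly equal amounts, imported into the nucleolus and assembled with ribosomal RNA into the small subunit, which reads the mRNA, and the large subunit, which joins the amino acids. Their mRNAs mostly begin with a cytosine followed by a run of pyrimidines, the 5′ terminal oligopyrimidine (TOP) tract, through which the growth-sensing kinase mTORC1 controls their translation. Much of that control acts on translation, which RNA counts do not measure. Several members also act outside the ribosome. Rpl5 and Rpl11, for example, bind Mdm2, the inhibitor of p53, when ribosome assembly is disturbed.

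Primary mouse Leydig cells, the steroid-making cells of the testis, were transfected either with an siRNA against Prdx1 (siprdx1), which encodes the peroxide-removing enzyme peroxiredoxin 1, or with a control siRNA (siNC). Each arm had 3 groups of 3 libraries. The groups siprdx1+H2O2+FV and siNC+H2O2+FV received 200 µM hydrogen peroxide (H2O2) for 30 min and then 5 µM fluvastatin (FV), a statin that inhibits HMG-CoA reductase, for 6 h. The groups siprdx1+H2O2 and siNC+H2O2 received the same H2O2 and then 0.1% DMSO for 6 h, and the groups siprdx1 and siNC received DMSO without H2O2. All groups were transfected. The labels give no DMSO for the fluvastatin groups, so drug and vehicle cannot be told apart there. Fluvastatin was never given without H2O2. Replicates are labelled biological, with no word on separate animals or cultures, so p-values measure only the spread between these samples.

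Libraries held 15201530 to 23898435 counts. Prdx1 mRNA fell with its siRNA in each treatment, with log2 fold changes of -1.47, -1.64 and -1.52 with H2O2 and fluvastatin, with H2O2 and with neither. Of the Leydig markers, Cyp11a1 averaged 712 CPM (depth-scaled counts with TMM factors), whereas Cyp17a1 and Hsd17b3 were near 0, with 12 and 23 counts over all 18 libraries. Macrophage and fibroblast markers were abundant, with averages of 5677 CPM for Lyz2 and 3716 CPM for Col1a1. Fewer cells of a type and less RNA per cell cannot be told apart in such bulk libraries.

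The annotated starts of the member genes were searched for pyrimidine runs. RefSeq start-site windows of the GRCm38.p6 build were found for 65 of the 90 members. A C at the start followed by at least 4 further pyrimidines stood in 15 of the 65 (23.1%), against 3.16% of the 11482 tested genes with a window. A run of at least 6 pyrimidines within 10 bases of the start stood in 40 (61.5%), against 33.4%. The 7-base motif CCGGAAG, searched on both strands over 250 bases before and 50 after the start and typical of ETS-family factors, stood in 26 (40%), against 18.6%. The windows below run from 15 bases before the annotated start to the 15th base of the transcript, 5′ to 3′ on the gene's strand, with the longest pyrimidine run that reaches within 10 bases of the start in capitals. Rps6, Rps9 and Rpl28 show runs across the start, the paralogues Rps27 and Rps27l differ in where the run lies, and Rpl22l1, Rpl14 and Rpl10a are members that the comparisons turn on.
Rps6 (chr4:86857353-86857382, minus strand): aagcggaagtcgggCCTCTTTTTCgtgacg
Rps9 (chr7:3704026-3704055, plus strand): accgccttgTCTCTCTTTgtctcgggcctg
Rpl28 (chr7:4792950-4792979, plus strand): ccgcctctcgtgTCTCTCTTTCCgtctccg
Rpl14 (chr9:120571502-120571531, plus strand): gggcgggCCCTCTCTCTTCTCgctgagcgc
Rps27 (chr3:90213634-90213663, minus strand): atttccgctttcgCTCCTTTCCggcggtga
Rps27l (chr9:66946071-66946100, plus strand): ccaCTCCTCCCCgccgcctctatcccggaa
Rpl22l1 (chr3:28805493-28805522, plus strand): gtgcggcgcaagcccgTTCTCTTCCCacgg
Rpl10a (chr17:28328456-28328485, plus strand): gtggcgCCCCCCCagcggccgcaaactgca
In Rps6 the run starts at the last base before the annotated start, whereas in Rps27l it ends before the first of its annotated starts. The other annotated start of Rps27l has no such run. For Rpl10a, the member with the smallest adjusted p for fluvastatin, the run before the first of its annotated starts is all C. A match is a description of these letters and does not show that a transcript begins there.

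The members' levels spanned a wide range. Per kilobase of the shortest coding transcript (for pseudogenes their own transcript), the highest were Rplp1 at 1881, Rps3 at 1603, Rps9 at 1297, Rpl41 at 1215 and Rpl32 at 1196 CPM per kb on average over the 18 libraries. At the other end stood Rpl24 at 0.580, Rpl39l at 0.522, Rps12l1 at 0.485, Rpl3l at 0.0850 and Rpl10l at 0.00988 CPM per kb. Ranks and levels per kb depend on this choice of transcript. Its length was 489 bases for Rps3, 478 for Rps9 and 3706 for Rps20, which had 324 CPM but 87.3 CPM per kb. Rpl3l is known from striated muscle and Rpl10l and Rpl39l from male germ cells, and germ cell markers were also near 0 in these cultures (Acrv1 had no count in any library). Rpl24, Rps10 and Rps13 are core proteins, and their rows held only 0.392, 2.53 and 4.60 CPM.

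Low rows went with sequence that other annotated genes also carry. For each member the transcript that gave its length was cut into all 150-base windows, the read length of the libraries. A window was called shared when it occurs, on either strand, in another gene's transcripts. The shared percentages thus describe 1 isoform per member. The 17 members with no shared window had a median of 485 CPM per kb and the 26 with up to 25% shared 518 CPM per kb. The 24 with over 25% to 50% shared had a median of 129 CPM per kb, and the 23 with over 50% shared 27.0 CPM per kb. Across the 90 members, Spearman's rho between level and shared share was -0.47, a description over genes of the same libraries. Rps10 shared 88.0% of its windows and Rpl24 72.5%, each with an annotated gene that overlaps the same locus and with genes elsewhere, and Rps13 shared 75%. The handling of reads that fit several genes is not given in the sources used here, so levels of such members are uncertain and its part in the low values was not tested. Rows of the 268 other genes that hold such windows took up little of the total, and adding them to the members raised the group means of the share of counts to between 2.44% and 2.84%.

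**Figure D1:**
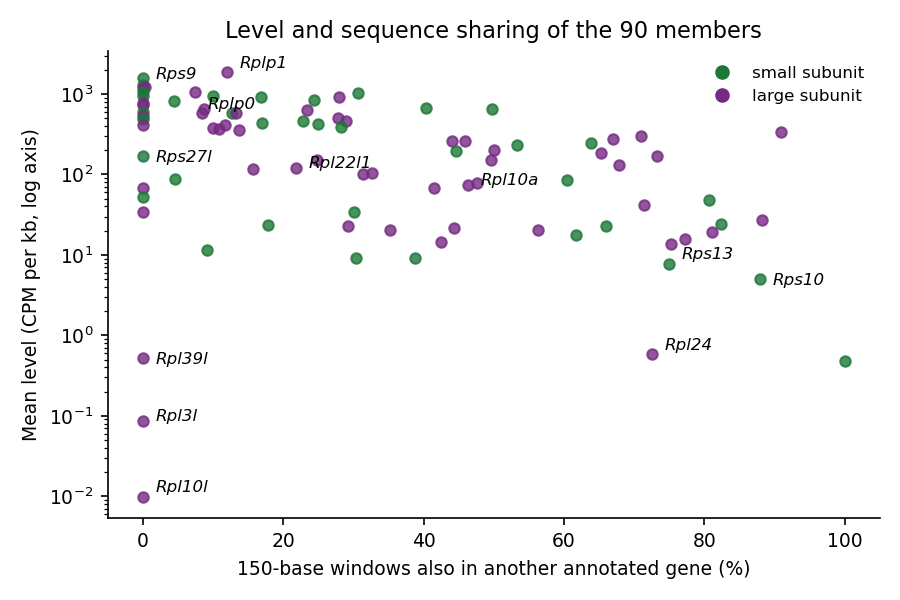
Mean level of each of the 90 members over 18 libraries (CPM per kb of the shortest coding transcript, log axis) against the percentage of that transcript's 150-base windows that occur in another annotated gene. Each point is 1 member, coloured by subunit. Members with at most 25% shared sit mostly above 100 CPM per kb, with the paralogues Rpl39l, Rpl3l and Rpl10l lowest among those with no shared window, and members with over 50% shared have a median of 27.0 CPM per kb.

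Among the members with roles at defined sites, the stalk proteins, which recruit elongation factors to the large subunit, were abundant. Rplp0, the stalk base (gene ENSMUSG00000067274, chromosome 5, 115559467 to 115563727, plus strand, GRCm38), averaged 1437 CPM, and its partners Rplp1 and Rplp2 averaged 939 and 388 CPM. Rpsa, which forms part of the small subunit's head and also serves as a laminin receptor, averaged 732 CPM. Rps6, the small-subunit protein phosphorylated by S6 kinase, averaged 21.2 CPM with 82.4% of its windows shared. Of the Mdm2-binding proteins of the 5S particle, Rpl5 averaged 55.2 CPM with 88.2% shared, and Rpl11 127 CPM with 49.6% shared. The fusion genes Rps27a, which also encodes ubiquitin, and Fau, which also encodes a ubiquitin-like protein, averaged 14.5 and 13.4 CPM. Of the paralogues, Rpl7l1 averaged 88.6, Rps27l 85.4 and Rpl22l1 64.1 CPM, and Rps4l, annotated as a transcribed processed pseudogene, averaged 41.8 CPM. Rps27l stood above Rps27 itself, at 171 against 17.4 CPM per kb, but Rps27l shared none of its windows and Rps27 61.7%. Rpl22l1 stood below Rpl22, at 122 against 529 CPM per kb.

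The 90 members together took 2.36%, 2.21% and 2.30% of all counts in siprdx1+H2O2+FV, 2.26%, 2.38% and 2.42% in siprdx1+H2O2 and 2.16%, 2.12% and 2.23% in siprdx1. In the control arm they took 2.04%, 1.90% and 2.09% in siNC+H2O2+FV, 2.42%, 2.19% and 2.36% in siNC+H2O2 and 2.23%, 1.83% and 2.02% in siNC. Every siprdx1+H2O2 library thus stood above every siprdx1 library, and siNC+H2O2 and siNC overlapped because the first siNC library was above the second siNC+H2O2 library. Relative to each member's mean over all libraries, the median member stood at 0.005, -0.31 and -0.17 on the log2 CPM scale in siNC, where replicates 1 and 2 were furthest apart. In the other 15 libraries it stood between -0.10 and 0.17.

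**Figure D2:**
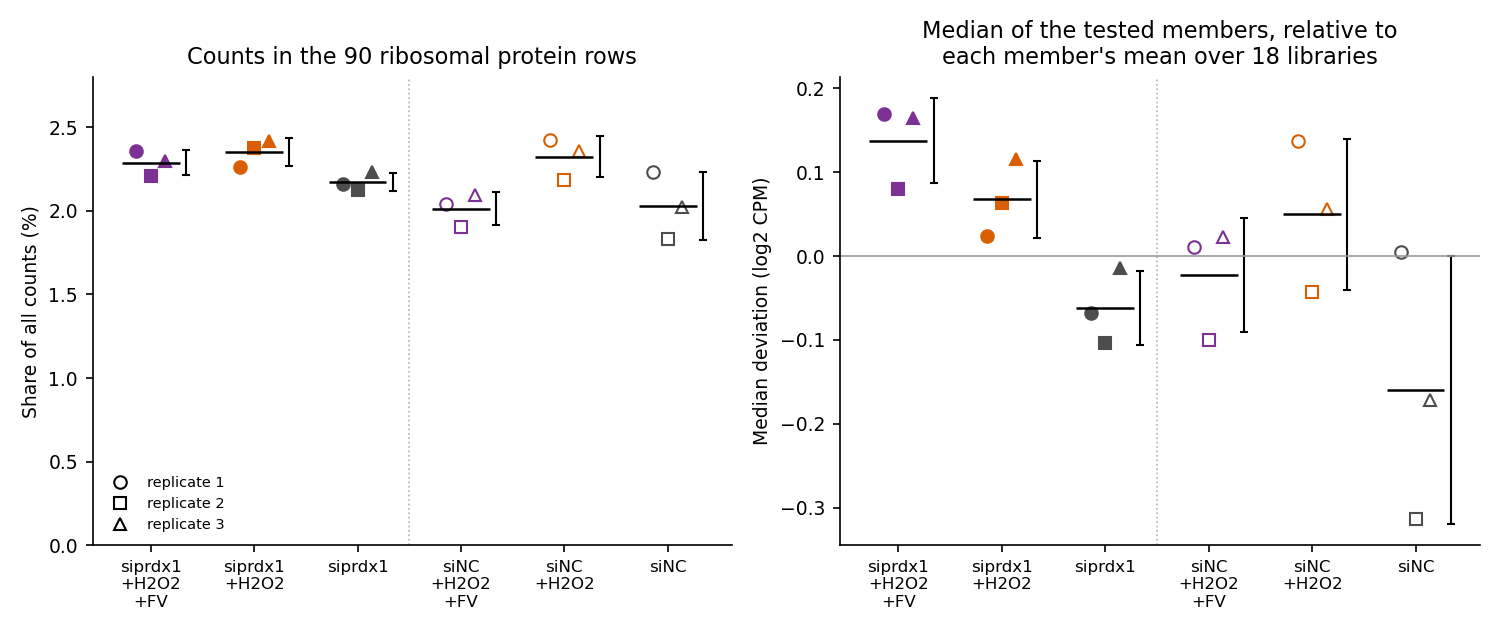
Left, share of all counts in the 90 member rows (%); right, median over the tested members of the deviation from each member's mean over 18 libraries (log2 CPM). Points are libraries, shaped by replicate number and grouped by siRNA and treatment, horizontal lines are group means and bars SD (n = 3); siNC replicate 2 is the lowest library in both panels, at 1.83% and -0.31.

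The H2O2 comparison asks what remained of a short peroxide pulse 6 h later. Ribosomal protein mRNAs were mostly slightly higher after it in both siRNA arms. In siprdx1 cells 5 members rose and 1 fell of 86 tested, where 2.48% of all 16432 genes tested rose and 5.39% fell. In siNC cells 9 rose and 1 fell, where 2.36% of all genes rose and 4.59% fell. The median log2 fold change of the members was 0.14 in siprdx1 and 0.22 in siNC cells, beside 0.02 and 0.008 over all genes tested. Above 0 were 78 and 81 of the 86, beside 54.6% and 51.7% of all genes. Members partly shift together between libraries, so these counts are not 86 separate results. The median member of a library had a within-group SD of 0.086 on the log2 scale. With offsets for each gene's GC content and length, these member medians were 0.09 in siprdx1 and 0.14 in siNC cells, with 70 and 78 of the 86 above 0. In each arm 19 members (22.1%) were higher in every H2O2 library than in every library without it, where 10.5% of all genes in siprdx1 cells and 12.5% in siNC cells were. Another 3 members and 1 member lay entirely lower with H2O2, where 12.1% and 14.4% of all genes did. The arms share no library. Small- and large-subunit members had like medians, 0.14 and 0.14 in siprdx1 and 0.22 and 0.21 in siNC cells.

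Members that rose in both arms included Rpl19 and Rps9. Rpl19, a large-subunit protein that reaches across to the small subunit (gene ENSMUSG00000017404, chromosome 11, 98026710 to 98030492, plus strand), had 156, 159 and 157 CPM in siprdx1+H2O2, against 128, 136 and 130.0 CPM in siprdx1. In the control arm it had 163, 154 and 171 CPM in siNC+H2O2, against 139, 127 and 139 CPM in siNC. The H2O2 libraries were all above those without in both arms, and the log2 fold changes were 0.26 ± 0.06 and 0.27 ± 0.06 (SE, edgeR adjusted p = 0.00537 and 0.00433). Rps9, which lies at the mRNA entry of the small subunit and shared no windows of the isoform used, rose by 0.18 ± 0.06 (edgeR adjusted p = 0.0484) and 0.23 ± 0.06 (edgeR adjusted p = 0.0105). In siprdx1 its lowest H2O2 library, at 616 CPM, was below the highest library without H2O2, at 617 CPM.

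Rps27l, a paralogue of Rps27 whose human gene is activated by p53 (gene ENSMUSG00000036781, chromosome 9, 66946086 to 66949516, plus strand), had the smallest adjusted p in siNC cells. It had 102, 92.8 and 90.9 CPM in siNC+H2O2, against 75.1, 75.1 and 69.7 CPM in siNC, with no overlap. Its log2 fold change was 0.38 ± 0.07 (edgeR adjusted p = 0.00127). In siprdx1 cells it had 95.6, 83.5 and 95.4 CPM with H2O2, against 84.9, 72.6 and 83.4 CPM without. Those groups overlapped and the change of 0.19 ± 0.07 did not pass (edgeR adjusted p = 0.099), and the difference between the arms did not pass either (edgeR adjusted p = 0.872). Rpl39, a small protein at the exit tunnel of the large subunit (gene ENSMUSG00000079641, chromosome X, 37082520 to 37085402, minus strand), had 293, 249 and 281 CPM in siNC+H2O2, against 241, 179 and 209 CPM in siNC. All 3 H2O2 libraries were higher, and it rose by 0.39 ± 0.09 (edgeR adjusted p = 0.00961). The siprdx1 libraries gave Rpl39 293, 289 and 300.4 CPM with H2O2, against 249, 219.5 and 257 CPM without, again with no overlap, but 0.28 ± 0.09 did not pass there (edgeR adjusted p = 0.0552). Rpl22l1, the paralogue of the RNA-binding protein Rpl22 (gene ENSMUSG00000039221, chromosome 3, 28805436 to 28807424, plus strand), had 74.4, 64.2 and 71.0 CPM in siNC+H2O2, against 55.8, 47.1 and 52.9 CPM in siNC. No library overlapped, and Rpl22l1 rose by 0.43 ± 0.12 (edgeR adjusted p = 0.0295), the highest fold change among the 9 members that rose. Rpl22 itself had 0.14 ± 0.06, which did not pass (edgeR adjusted p = 0.154).

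Other rises in siNC cells included Rpl14 and Rps25, with log2 fold changes of 0.36 ± 0.10 and 0.19 ± 0.05 (edgeR adjusted p = 0.0336 and 0.0391). In siprdx1 cells they included Rpl32, at 0.28 ± 0.08, and Rpl4, at 0.15 ± 0.04 (edgeR adjusted p = 0.0237 and 0.0481). Rpl4, which lines the exit tunnel, had 1169.8, 1225 and 1164 CPM in siprdx1+H2O2, against 1097, 1077 and 1043 CPM in siprdx1, so its small change rested on narrow groups. The falls were both in rows of few counts with many shared windows. Rps13 had 2.64, 2.62 and 3.71 CPM in siprdx1+H2O2, against 5.07, 3.94 and 5.63 CPM in siprdx1, with no overlap and a log2 fold change of -0.68 ± 0.16 (edgeR adjusted p = 0.00741). Rps10 had 2.08, 2.06 and 1.86 CPM in siNC+H2O2, against 3.24, 3.10 and 3.71 CPM in siNC, and fell by 0.75 on the log2 scale (edgeR adjusted p = 0.035). The stalk members did not pass in siNC cells, with 0.16 ± 0.07 for Rplp0, 0.23 ± 0.18 for Rplp1 and 0.26 ± 0.14 for Rplp2 (edgeR adjusted p = 0.163, 0.49 and 0.32). Nor did Rpsa, Rps6, Rpl5, Rpl11, Rps27a, Fau, Rpl7l1 or Rps4l, whose values lay between 0.07 and 0.25 there. Those of Fau and Rps27a turned below 0 under some alternatives.

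The count of rises depended on single libraries and on the model. In siNC cells 27 members rose without siNC replicate 1, where 423 of 16767 genes did. Leaving out siNC+H2O2 replicate 1 left 3, and leaving out siNC replicate 2, siNC replicate 3 or siNC+H2O2 replicate 3 left 5 each. Over all genes 208, 194, 233 and 216 rose in these fits, in that order. The members' median of 0.22 became 0.14 without siNC replicate 2. Same-numbered libraries of siNC+H2O2 and siNC correlated weakly, at 0.118 to 0.135. With the replicate number as a block over all 18 libraries 26 members rose and 1 fell, where 530 and 818 of 16432 genes did. Without the filter on low counts 22 members rose in siprdx1 and 49 in siNC cells, where 482 and 506 of 30307 genes did. In siprdx1 cells 2 members rose without siprdx1 replicate 1 or without siprdx1+H2O2 replicate 3, 3 without siprdx1 replicate 2 and 5 without siprdx1 replicate 3, where none fell. Over all genes 242, 217, 307 and 242 rose in these fits, in that order. Over the 6 fits that each leave out 1 library of the contrast, Rpl19 passed in all 6 in both arms and Rps27l in all 6 in siNC cells. Rpl39 and Rps9 passed in 4 and 4 of the 6 in siNC cells, Rpl22l1 in 2, Rpl14 in 1, and Rps25 and Rps10 in none. In siprdx1 cells Rps13 passed in 5, without siprdx1 replicate 3 not, Rps9 and Rpl32 in 2 each and Rpl4 in none. Offsets for GC content and length also ended the calls of Rps9, Rps25 and Rpl14 in siNC cells and of Rps9, Rpl32 and Rpl4 in siprdx1 cells. Macrophage transcripts moved with this comparison in siNC cells, where 2 of 10 markers rose and their summed level was 9483 to 10097 CPM in siNC+H2O2, against 8294 to 9096 CPM in siNC, and 0 of 10 rose in siprdx1 cells (8103 to 8361 CPM with H2O2, against 7753 to 8012 CPM without). Fibroblast markers moved with it in siprdx1 cells, where 3 of 6 rose and their summed level was 17269 to 18535 CPM in siprdx1+H2O2, against 15019.8 to 15772 CPM in siprdx1. None of the markers of these lists was at 0 in any library, and their part in the members' change was not tested.

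**Figure D3:**
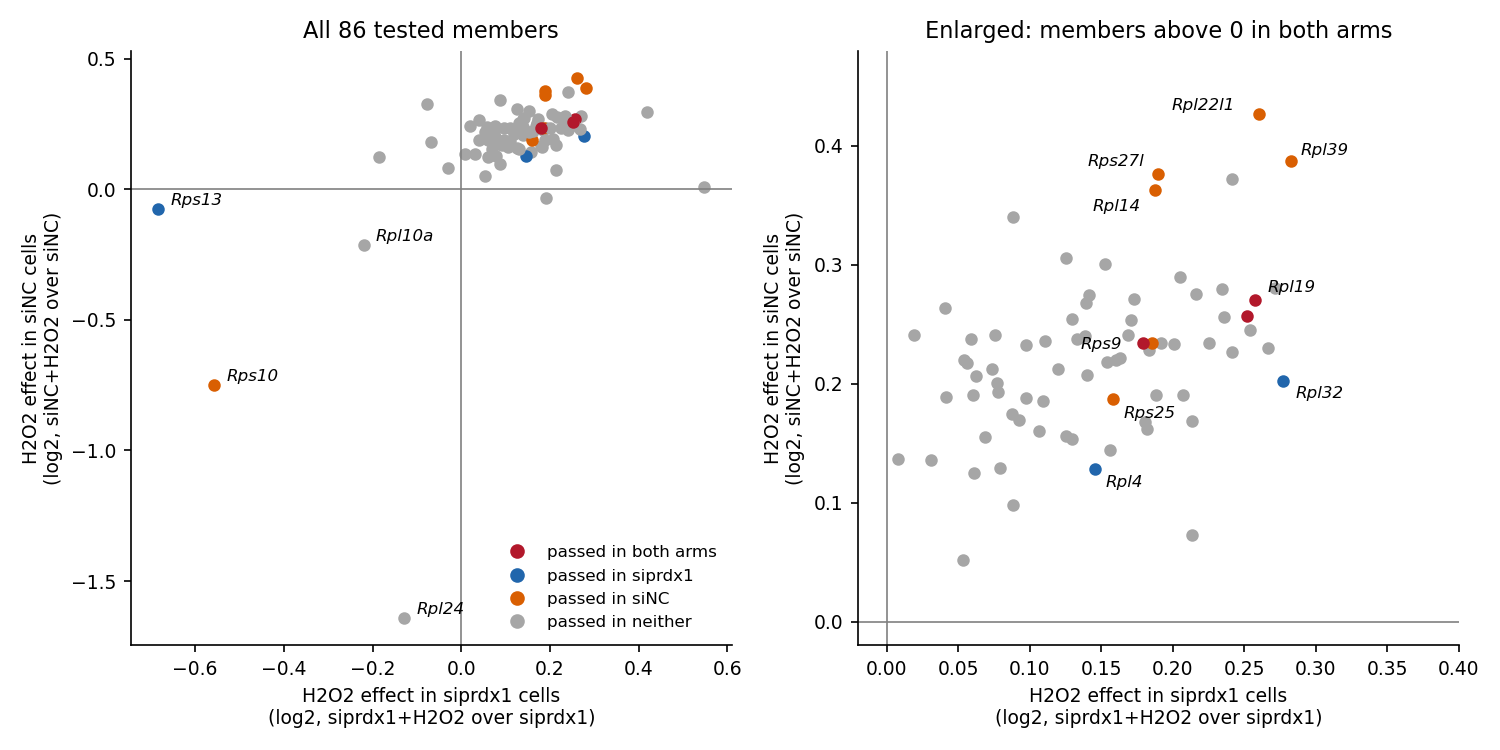
H2O2 effect on each of the 86 tested members (log2 fold change) in siprdx1 cells on the horizontal axis and in siNC cells on the vertical axis, with most of the region above 0 in both arms enlarged on the right; colours give the arms in which a member passed the edgeR test. Most members lie above 0 on both axes, around medians of 0.14 and 0.22, and Rps10, Rps13, Rpl10a and the sparsely counted Rpl24 lie away from them.

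Fluvastatin after H2O2 asks what the statin did to peroxide-treated cells, and here few members passed. In siprdx1 cells 3 members rose, where 12.6% of all genes did, and 0 fell, where 11.0% of all genes did (0 fell at an unadjusted p below 0.05, and 0 by DESeq2 and by limma voom). In siNC cells 2 rose, where 13.5% of all genes did, and 3 fell, where 11.3% did. The members' median was 0.08 in siprdx1 cells, but -0.02 with counts scaled by library size alone, which moves the median of all genes to -0.11. In siNC cells it was -0.08, and -0.18 by library size alone, which likewise moves the median of all genes to -0.11. That scaling made 14 of the 86 members fall, where 3835 of all 16432 genes did. With GC and length offsets the siNC median was -0.03. Groups did not overlap for 13 members higher and 2 lower with fluvastatin in siprdx1 cells, where 17.7% of all genes were higher and 17.7% lower. In siNC cells 3 lay higher and 5 lower, where 19.9% and 19.0% of all genes did.

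Rpl10a rose in both arms. It encodes the protein of the L1 stalk, the mobile arm of the large subunit by which the spent tRNA leaves (gene ENSMUSG00000037805, chromosome 17, 28328471 to 28331033, plus strand). It had 55.5, 52.8 and 56.7 CPM in siprdx1+H2O2+FV, against 33.6, 32.4 and 33.2 CPM in siprdx1+H2O2. In the control arm it had 45.4, 45.1 and 44.7 CPM in siNC+H2O2+FV, against 31.4, 28.1 and 35.2 CPM in siNC+H2O2. Every fluvastatin library was higher than every library with H2O2 alone, and the log2 fold changes were 0.73 ± 0.08 and 0.51 ± 0.08 (edgeR adjusted p = 8.21e-08 and 2.38e-05). Rpl10a passed in both arms in all 6 fits that leave out 1 library and in all other alternatives run. The fluvastatin levels also lay above those without H2O2, which were 36.2, 39.6 and 39.7 CPM in siprdx1 and 39.7, 32.8 and 37.4 CPM in siNC. H2O2 alone gave Rpl10a -0.22 ± 0.08 and -0.21 ± 0.08, below 0 in both arms where most members were above it, but neither passed (edgeR adjusted p = 0.0853 and 0.104). The row shared 46.3% of its windows with 1 other gene.

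**Figure D4:**
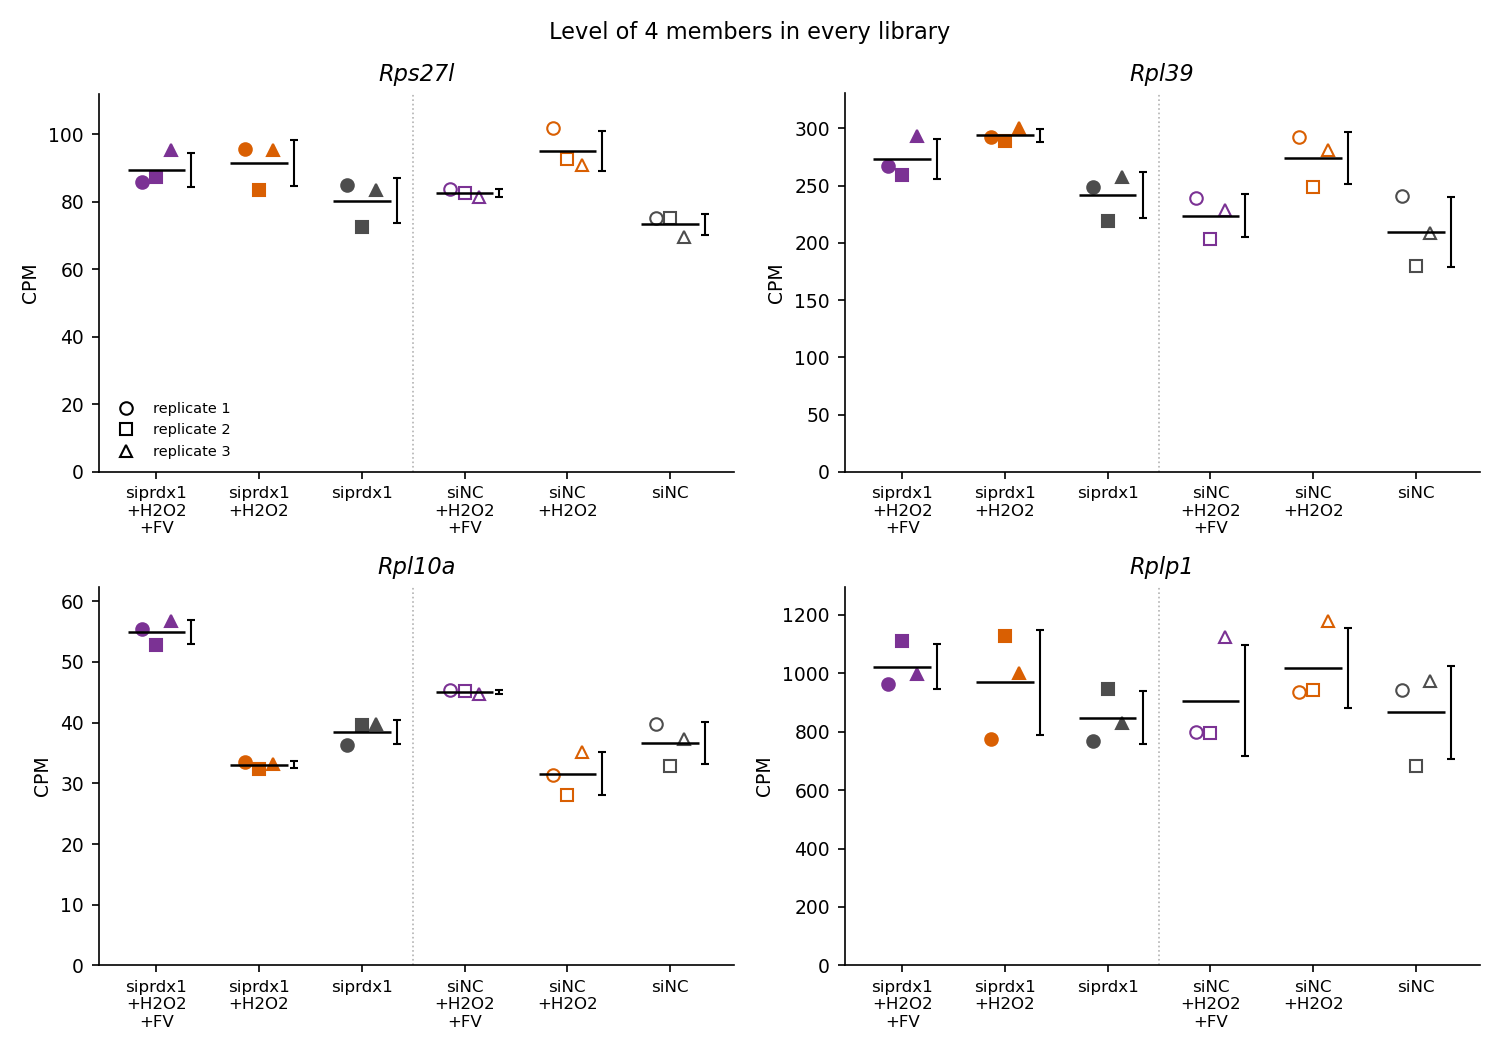
Level (CPM) of Rps27l, Rpl39, Rpl10a and Rplp1 in each of the 18 libraries, with group means as horizontal lines and SD as bars (n = 3); symbols give the replicate number. Rpl10a separates the fluvastatin groups from the rest in both arms, and Rps27l and Rpl39 are higher in siNC+H2O2 than in siNC. For Rplp1 the log2 SD was 0.23 between single libraries within groups and 0.12 between group means of 3 libraries, which are unlike quantities.

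The other fluvastatin calls were smaller, single-arm or of few counts. In siprdx1 cells Rps13 had 4.55, 4.82 and 5.29 CPM with fluvastatin, against 2.64, 2.62 and 3.71 CPM with H2O2 alone, and rose by 0.70 ± 0.16 without overlap (edgeR adjusted p = 0.00183). This comparison shares the siprdx1+H2O2 libraries with the H2O2 comparison in which Rps13 fell, and siprdx1 had 5.07, 3.94 and 5.63 CPM. Rpl28, a large-subunit protein, had 13.9, 14.2 and 14.4 CPM in siprdx1+H2O2+FV, against 9.58, 11.5 and 10.3 CPM in siprdx1+H2O2, and rose by 0.44 ± 0.14 (edgeR adjusted p = 0.0201). In siNC cells Rpl39 fell to 239, 203 and 229 CPM with fluvastatin, against 293, 249 and 281 CPM with H2O2 alone, a change of -0.29 ± 0.09 (edgeR adjusted p = 0.0189). Rps27l fell to 83.9, 82.7 and 81.4 CPM, against 102, 92.8 and 90.9 CPM (-0.20 ± 0.07, edgeR adjusted p = 0.033). Rps9 fell by 0.16 ± 0.06 on the log2 scale (edgeR adjusted p = 0.0404). These 3 had risen with H2O2 in siNC cells, and both comparisons share the siNC+H2O2 libraries. Rpl24 rose by 1.78 ± 0.60 (edgeR adjusted p = 0.0315) on 0 to 18 counts per library. No member's fluvastatin effect differed between the arms at the threshold.

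These calls were followed as single libraries were left out. Over the 6 fits that leave out 1 library, Rps13 passed in all 6 and Rpl28 in 2 in siprdx1 cells, and Rpl39 in 3, Rpl24 in 2, and Rps27l and Rps9 in 1 each in siNC cells. None fell in siNC cells when siNC+H2O2 replicate 1 or siNC+H2O2+FV replicate 2 was left out, and the median of -0.08 was then -0.03 in both. It was -0.13 without siNC+H2O2 replicate 2, where 2 members fell, and 1 fell without siNC+H2O2 replicate 3 or without siNC+H2O2+FV replicate 1. Over all genes 1374, 1344, 1618, 1363 and 1364 fell in these siNC fits, in the order named. In siprdx1 cells the median was 0.13 without siprdx1+H2O2+FV replicate 2. Only 1 rose in siNC cells without siNC+H2O2 replicate 1, without siNC+H2O2 replicate 2, without siNC+H2O2+FV replicate 2 or without siNC+H2O2+FV replicate 3, and that 1 was Rpl10a. Over all genes 1825, 2070, 1781 and 2226 rose in these fits, in that order.

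The number of ribosomal protein mRNAs that passed with Prdx1 knockdown depended on the model under H2O2 and fluvastatin. With H2O2 and fluvastatin 1 member rose, where 1.62% of all genes did, and 0 fell, where 2.35% did (0 at an unadjusted p below 0.05, and 0 by DESeq2 and limma voom). That member was Rpl10a, with 55.5, 52.8 and 56.7 CPM in siprdx1+H2O2+FV, against 45.4, 45.1 and 44.7 CPM in siNC+H2O2+FV. The groups did not overlap, and the change was 0.29 ± 0.07 (edgeR adjusted p = 0.0318), but it passed in none of the 6 fits that leave out 1 library and not with GC and length offsets. A further 26 members, 27 in all (31.4%), were higher in every siprdx1+H2O2+FV than in every siNC+H2O2+FV library, where 10.8% of all genes were, and 1 was lower, where 11.5% of all genes were. The members' median was 0.17 beside 0.005 for all genes, and 78 of 86 were above 0 beside 51.1% of all genes. The members' median was 0.11 with GC and length offsets. DESeq2 called 5 members higher, a fit to only these groups 10 and edgeR without the filter on low counts 30. Over all genes these fits called 338 of 16432, 299 of 15514 and 400 of 30307 higher. No member rose without siNC+H2O2+FV replicate 2, without siNC+H2O2+FV replicate 3, without siprdx1+H2O2+FV replicate 1 or without siprdx1+H2O2+FV replicate 3. Over all genes 128, 282, 139 and 181 rose in these fits, in that order. Some cell type markers also differed here. The fibroblast list summed to 15798 to 16454 CPM in siprdx1+H2O2+FV, against 18251 to 18956 CPM in siNC+H2O2+FV, with 2 of 6 lower by the test and a median of -0.17. The Leydig list summed to 1348 to 1357 CPM in siprdx1+H2O2+FV, against 1456 to 1508 CPM in siNC+H2O2+FV. Of its 7 tested markers only Cyp11a1 was called, lower by 0.20 on the log2 scale (edgeR adjusted p = 0.00839). The median of the 7 was -0.04, with 3 above 0. The macrophage list summed to 8501 to 8924 CPM in siprdx1+H2O2+FV, against 8366 to 8478 CPM in siNC+H2O2+FV. Its median was 0.08, with 7 of 10 above 0, and only Marco was called, lower by 0.46 (edgeR adjusted p = 3.91e-05). The endothelial marker Cdh5 was lower by 0.26 (edgeR adjusted p = 0.0135). The part of these cell type markers in the members' difference was not tested.

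With H2O2 alone edgeR called 0 members either way, where 0.901% of all genes were higher and 1.83% lower. Groups did not overlap for 3 members higher and 1 lower, where 8.03% and 9.13% of all genes did not. There 1 member had an unadjusted p below 0.05, where 2288 of all 16432 genes did, and DESeq2 and limma voom also called 0. The median was 0.01, but 0.06 without siNC+H2O2 replicate 1, -0.03 without siNC+H2O2 replicate 2 and -0.02, with 1 member lower, without siprdx1+H2O2 replicate 3. In that last fit 180 of 16696 genes were lower. Without H2O2 edgeR called 0 members either way, where 0.657% of all genes were higher and 1.67% lower. DESeq2 and limma voom also called 0. An unadjusted p below 0.05 was found for 6 members, where 1823 of all 16432 genes had one. Groups did not overlap for 2 members higher and 0 lower, where 7.09% and 8.19% of all genes did not. The median was 0.08, but 0.01 without siNC replicate 2 and 0.15, with 1 member higher, without siNC replicate 1. In that last fit 67 of 16767 genes were higher.

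The arms were then compared by an interaction. For H2O2, edgeR called 0 members different between siprdx1 and siNC cells, where 0.0426% of all genes were called higher and 0.201% lower. DESeq2 and limma voom also called 0. An unadjusted p below 0.05 was found for 1 member, where 977 of all 16432 genes had one. The median difference was -0.07, with 17 of 86 above 0 beside 51.2% of all genes. It was 0.01 without siNC replicate 2 and -0.16 without siNC replicate 1. For fluvastatin edgeR also called 0 members, where 0.463% of all genes were called higher and 0.189% lower. DESeq2 and limma voom again called 0. An unadjusted p below 0.05 was found for 5 members, where 2112 of all 16432 genes had one. The median difference was 0.17, with 75 of 86 above 0 beside 51.5% of all genes, but 0.11 with GC and length offsets. Without the filter on low counts 7 members were called higher, where 168 of 30307 genes were. All 10 macrophage markers were above 0 in the same difference between arms, with a median of 0.29, and all 6 fibroblast markers were below 0, with a median of -0.14. In summed level the macrophage markers reached 8501 to 8924 CPM in siprdx1+H2O2+FV and 8103 to 8361 CPM in siprdx1+H2O2, and 8366 to 8478 CPM in siNC+H2O2+FV and 9483 to 10097 CPM in siNC+H2O2. Their part in the members' difference was not tested.

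Within groups the members did not vary as a block. Among the 50 members at or above 100 CPM, the shift common to all of them took 39.0% of the variation between replicates, and a single further axis took 56.3% of the remainder. At one end of that axis stood Rplp1, Rplp2, Rpl36, Rps19 and Rps21, and at the other Rps3a1, Rpl10, Rps24, Rps4x and Rpl7. Rplp1 had 963, 1109 and 997 CPM in siprdx1+H2O2+FV, 777, 1129 and 1001 CPM in siprdx1+H2O2 and 769, 946 and 830.1 CPM in siprdx1. The second replicate was the highest each time. In the control arm the corresponding values were 798, 795 and 1126 CPM in siNC+H2O2+FV, 936, 944 and 1178 CPM in siNC+H2O2 and 944, 683 and 973 CPM in siNC, and there the third replicate was the highest. Rps3a1, a small-subunit protein, ran the other way. It had 460.0, 364 and 419 CPM in siprdx1+H2O2+FV, 421, 365 and 393 CPM in siprdx1+H2O2 and 392, 329 and 381 CPM in siprdx1, with the second replicate the lowest. Position on the axis went with the transcript's GC content and, inversely, with its length (Spearman's rho 0.41 and -0.42 over the 50 members, which share their libraries). Whether base composition accounts for the axis was not tested. The 17 members richest in GC and the 17 poorest had medians for H2O2 of 0.18 and 0.14 in siprdx1 cells and 0.23 and 0.22 in siNC cells. For fluvastatin their medians were 0.08 and 0.08 in siprdx1 cells and -0.13 and -0.08 in siNC cells, and the difference between the arms 0.24 and 0.14. For knockdown with H2O2 and fluvastatin they were 0.21 and 0.15.

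The rest of the protein synthesis pathway is read against the shares of all genes that passed with H2O2, 2.48% higher and 5.39% lower in siprdx1 cells and 2.36% higher and 4.59% lower in siNC cells. Of 25 other mRNAs known or held to carry a TOP tract, 4 rose and 1 fell in siprdx1 cells and 4 rose in siNC cells, with medians of 0.14 and 0.13. Eef1b2, a subunit of the factor that recharges eEF1A, had 507, 545 and 522 CPM in siprdx1+H2O2, against 434, 448 and 432 CPM in siprdx1. In siNC+H2O2 it had 510.2, 491 and 523 CPM, against 439, 416 and 439 CPM in siNC. H2O2 libraries were above in both arms, and Eef1b2 rose by 0.26 ± 0.05 and 0.24 ± 0.05 (edgeR adjusted p = 0.0015 and 0.00483). Eif3h, a subunit of initiation factor eIF3, rose by 0.19 ± 0.05 and 0.19 ± 0.05 (edgeR adjusted p = 0.00978 and 0.013). The one TOP-list fall was Hnrnpa1, an RNA-binding protein, at -0.43 ± 0.09 in siprdx1 cells (edgeR adjusted p = 0.00379). Of 32 initiation, elongation and termination factors 1 rose in siprdx1 and 2 in siNC cells, and Eif1, which guards start codon choice, was among them in both, at 0.24 ± 0.06 and 0.37 ± 0.06 (edgeR adjusted p = 0.015 and 0.00034). Of 44 ribosome biogenesis genes 3 fell in siprdx1 cells, and 1 rose and 1 fell in siNC cells. Mdn1, the ATPase that strips factors from the maturing large subunit, fell in both, with -0.34 ± 0.06 and -0.29 ± 0.06 (edgeR adjusted p = 0.000629 and 0.00419). Offsets for GC content and length ended both Mdn1 calls, though the siprdx1 call held when the replicate block was added to them. Over all alternatives its weakest fold changes were -0.15 in siprdx1 and -0.014 in siNC cells.

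Fluvastatin changed most ribosome biogenesis genes. In siprdx1 cells 28 of the 44 rose and 1 fell, with a median of 0.33, and in siNC cells 26 rose and 1 fell, with a median of 0.28. Of all genes tested, 12.6% rose and 11.0% fell in siprdx1 cells and 13.5% rose and 11.3% fell in siNC cells, shares that also stand beside the counts of the lists that follow. Among them were Nolc1, a nucleolar chaperone, at 0.77 ± 0.06 and 0.58 ± 0.06 (edgeR adjusted p = 3.03e-10 and 5.76e-08), and Nop58, a core protein of the particles that methylate ribosomal RNA, at 0.73 ± 0.07 and 0.62 ± 0.07 (edgeR adjusted p = 9.72e-09 and 1.94e-07). Gnl3, also called nucleostemin, rose by 0.72 ± 0.07 and 0.63 ± 0.07 (edgeR adjusted p = 1e-08 and 1.23e-07). Of the 32 initiation to termination factors 11 rose and 1 fell in each arm, with medians of 0.12 and 0.08. Etf1, the release factor that ends translation at stop codons, rose by 0.69 ± 0.08 and 0.84 ± 0.08, and Eif4a1, the helicase of cap-dependent initiation, by 0.55 ± 0.07 and 0.35 ± 0.07 (edgeR adjusted p = 2.16e-07, 1.08e-08, 2.69e-06 and 0.000881). Of the other TOP mRNAs 3 rose and 1 fell in siprdx1 cells and 1 rose and 2 fell in siNC cells, with medians of 0.01 and -0.03. Eif4b, an initiation factor, fell in both, with -0.38 ± 0.04 and -0.23 ± 0.04 (edgeR adjusted p = 1.17e-07 and 0.000119).

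Growth regulators moved in both directions. Of 27 listed, 6 rose and 5 fell in siprdx1 cells and 8 rose and 8 fell in siNC cells. Myc, the transcription factor that drives ribosome production, had 228, 234 and 223 CPM in siprdx1+H2O2+FV, against 61.6, 78.0 and 73.2 CPM in siprdx1+H2O2. In siNC+H2O2+FV it had 195, 219 and 229 CPM, against 71.5, 71.5 and 75.6 CPM in siNC+H2O2. The fluvastatin libraries lay far above, and Myc rose by 1.68 ± 0.07 and 1.56 ± 0.07 (edgeR adjusted p = 7.23e-15 and 4.36e-14). Rheb, the GTPase that activates mTORC1, rose by 0.91 ± 0.07 and 0.89 ± 0.07, and Mdm2 by 0.77 ± 0.06 and 0.76 ± 0.06 (edgeR adjusted p = 1.61e-09, 2.82e-09, 1.38e-09 and 2.64e-09). Sesn1, a sestrin that restrains mTORC1, fell in both arms, with -0.69 ± 0.06 and -0.58 ± 0.06 (edgeR adjusted p = 1.67e-09 and 2.9e-08). Beside these, the ribosomal protein medians were 0.08 and -0.08. The smooth muscle list also rose with fluvastatin, 4 of 4 markers in each arm, and no defining marker of it was at 0. Its part in these changes was not tested.

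**Figure D5:**
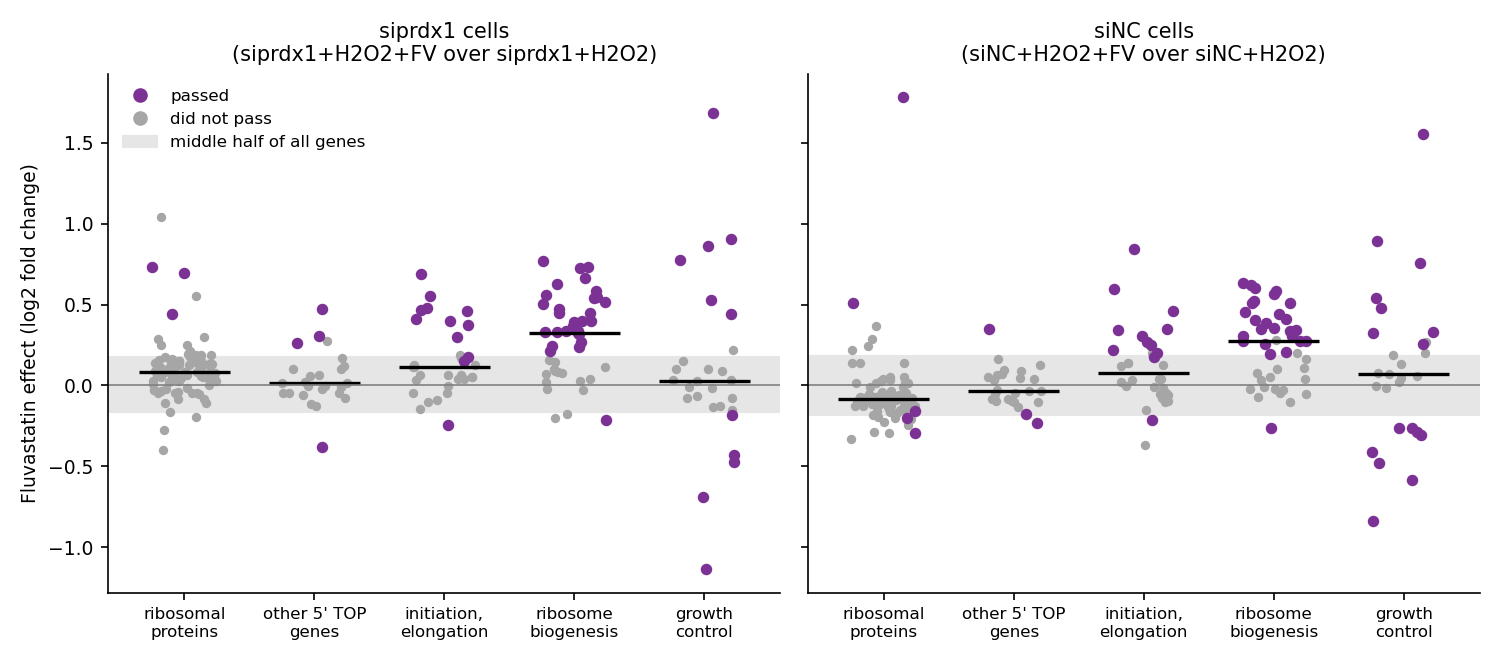
Fluvastatin effect (log2 fold change) on the 86 tested ribosomal proteins and on 4 lists of other protein synthesis genes in siprdx1 cells (left) and siNC cells (right); points are genes, purple where the edgeR test passed, black lines are list medians and the grey band is the interquartile range of all 16432 genes tested. Ribosome biogenesis medians are 0.33 and 0.28, ribosomal protein medians 0.08 and -0.08, and Myc is the topmost point of growth control in each panel.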

How the data were processed

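Poly(A) RNA of 18 samples of cultured mouse Leydig cells was sequenced as 150-base paired reads with a stranded kit, according to the labels' protocols. What the authors deposited is a single table of unnormalised counts of reads over genes. The submitters' processing notes name HISAT2, HTSeq and mm10, and versions, annotation, strand setting and the handling of reads that fit several genes are not given in the sources used here. Library totals ranged from 15201530 to 23898435 counts.

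The test was edgeR 4.0.16 (R 4.3.3), after TMM normalisation, with filterByExpr (16432 of 55487 genes kept) and a robust quasi-likelihood fit of 6 group means to all 18 libraries (12 residual degrees of freedom). The threshold was an adjusted p of 0.05 (Benjamini-Hochberg, over all genes tested, in each of 9 contrasts). CPM values used the same scaling. Fold changes are log2, and SE is the fold change over the square root of its F value. Coordinates, transcript lengths (the shortest coding transcript) and 150-base windows came from GENCODE M21 (GRCm38, the mm10 assembly), and start-site windows from RefSeq (GRCm38.p6). The members and lists were chosen with earlier results of these data known. Members named are a set of fixed roles and paralogues, up to 6 per contrast and direction with the smallest adjusted p, and the 5 highest and lowest per length. Some members are counted but not reported by name here. Rpl14, Rps25, Rpl22, Rps27 and the ends of the within-group axis fall outside this rule and were chosen after their values were seen. Other genes named are up to 4 per list and contrast that passed, and cell type markers.

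Replicate numbers recur in every group without a stated pairing. Same-numbered libraries correlated above 0.1 in every pair only for H2O2 in siNC cells (0.135, 0.135 and 0.118), so pairing there comes from this check of the data. Within each group no library was a copy of another, since chi-square between its replicates was 2.64 to 15.8 for each degree of freedom. Libraries of different groups were not compared in this way. The fit was tested on simulated data. Alternatives were RLE scaling, library size alone, TMM without the members, no low-count filter, the replicate block, only the groups compared, DESeq2 1.42.0, limma voom (3.58.1), GC and length offsets with and without the block, leaving out each library, and adding pseudogene rows to the members.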

Additional observations from a re-analysis of the deposited data

How the results depend on the processing

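In this paragraph, members are counted as higher and lower, with all genes of the same fit in brackets unless another share is stated. The fits tested 16432 genes, or 30307 without the low-count filter, unless another number is given. Scaling by library size alone gave 2 and 2 (234 and 1132) for H2O2 in siprdx1 cells. For fluvastatin it gave 2 and 2 (1463 and 3634) in siprdx1 cells with a median of -0.021. In siNC cells it gave 14 lower (3835) for fluvastatin with a median of -0.18. Knockdown with H2O2 and fluvastatin gave 2 higher (311). No low-count filter gave 22 and 49 higher (482 and 506) for H2O2 in siprdx1 and siNC cells. For fluvastatin it gave 8 and 1 (2113 and 1663) in siprdx1 cells and 14 lower (1766) in siNC cells. Knockdown gave 30 higher (400) with H2O2 and fluvastatin. Knockdown with neither gave 1 higher, where the fit with the filter called 0.657% of all genes higher. The fluvastatin interaction gave 7 higher (168). Fitting only the groups compared gave 1 and 0 (99 and 539 of 15469) for H2O2 in siprdx1 cells. It gave 1 higher (2352 of 15312) for fluvastatin in siNC cells and 10 higher (299 of 15514) for knockdown with H2O2 and fluvastatin. DESeq2 gave 14 higher (495) for H2O2 in siNC cells and 5 (338) for that knockdown contrast. GC and length offsets gave 3 and 2 (975 and 1276) for H2O2 in siprdx1 cells and 2 lower (1058) in siNC cells. For fluvastatin they gave 1 lower (2203) in siprdx1 cells and 4 higher (2597) in siNC cells. Knockdown gave 2 higher (524) with H2O2 and fluvastatin and 1 lower (662) with H2O2. The replicate block, fitted over all 18 libraries, gave 26 higher (530) for H2O2 in siNC cells, where pairing rests on weak correlations alone. In the other contrasts at least 1 same-numbered pair correlated at under 0.1, so the numbers were not taken as pairs. Rplp1 was nonetheless highest in the same replicate number in every group of an arm. The block gave 13 higher (485) for H2O2 in siprdx1 cells. For fluvastatin it gave 5 lower (1945) in siNC and 1 lower (1842) in siprdx1 cells. Knockdown gave 1 lower (335) with H2O2 and 6 higher (294) with H2O2 and fluvastatin. The block with GC and length offsets gave 12 and 2 (1130 and 1363) for H2O2 in siprdx1 cells and 14 and 2 (954 and 1146) in siNC cells. For fluvastatin it gave 9 and 3 (2820 and 2288) in siprdx1 cells and 5 higher (2692) in siNC cells. Knockdown gave 3 higher (355) without H2O2, 6 higher (616) with H2O2 and fluvastatin and 2 lower (765) with H2O2. The fluvastatin interaction then gave 1 higher (293).

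Leaving out 1 library gave 2 to 7 higher and 0 to 1 lower for H2O2 in siprdx1 cells (median 0.11 to 0.16), 3 to 27 and 0 to 1 in siNC cells (0.14 to 0.29), 2 to 3 and 0 for fluvastatin in siprdx1 cells (0.06 to 0.13) and 1 to 2 and 0 to 4 in siNC cells (-0.13 to -0.03). For knockdown it gave 0 to 1 higher with H2O2 and fluvastatin (0.13 to 0.21), 0 to 1 lower with H2O2 (-0.03 to 0.06) and 0 to 1 higher without (0.01 to 0.15), and for the interactions medians of -0.16 to 0.01 and 0.13 to 0.21. Over all genes, the H2O2 fits called 217 to 415 higher and 600 to 882 lower in siprdx1 cells, and 194 to 423 and 437 to 732 in siNC cells. The fluvastatin fits called 1710 to 2097 and 1373 to 1682 in siprdx1 cells, and 1733 to 2226 and 1344 to 1757 in siNC cells. For knockdown, in the order above, the counts were 128 to 282 higher, 164 to 279 lower and 47 to 87 higher. Members that had not passed changed sign. Rpl5 for H2O2 in siprdx1 cells became -0.030 by library size alone, -0.0036 in the groups compared only and ranged from -0.097 to 0.077 with 1 library left out. Fau in siNC cells became -0.019 with GC and length offsets and -0.026 with the block added, and ranged from -0.058 to 0.14. Rps27a ranged from -0.065 to 0.23 in siNC cells and from -0.16 to 0.046 in siprdx1 cells with 1 library left out. The cause was not tested. Few counts per library limit what can be said of Rps10, Rps13 and Rpl24.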
